A study of Mus musculus with 5 samples.

Results

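The spliceosome removes introns from nuclear pre-mRNA. It is built from small nuclear ribonucleoprotein particles (snRNPs), each with a U RNA held in a ring of Sm or Sm-like (Lsm) proteins, and from many proteins that join at single steps. PRMT5 is the main enzyme of symmetric arginine dimethylation, and it methylates the arginine-glycine tails of the Sm proteins B, D1 and D3 and of LSM4, which aids the loading of Sm rings onto U RNAs by the SMN complex. The genes described here were chosen by their names: those beginning with Snrp followed by a letter from a to f, the numbered Lsm, Srsf and Prpf genes, and the numbered subunits of the SF3A and SF3B complexes. In the expression table, 54 of the 19699 entries met the rule, namely 10 Sm and other snRNP protein genes (Snrp), 11 Lsm genes, 9 SF3 genes, 11 genes of SR proteins (Srsf) and 13 genes of Prp factors (Prpf). Snrpg, which encodes the remaining protein of the Sm ring, falls outside the rule and is described with the other splicing genes.

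RNA was sequenced from the main airway part, with trachea and lung, of C57 mouse embryos at E13.5. There were 2 mutant libraries (titled MU, genotype given as Prmt5 knockdown) and 3 control libraries (titled WT, genotype WT), and per the design text the controls were littermates. The growth protocol describes the loss of Prmt5 as a knockout limited to lung epithelial cells, and the design text names Shh with Prmt5 for the mutants. Shh is active in airway epithelium and is a common driver of recombination there, but the labels do not spell out the driver or whether the controls carry it. The treatment text of the labels describes the fat cell differentiation of a culture, which cannot apply to embryos. The labels do not give the number of embryos behind a library. The p-values therefore rest on the differences among these 5 libraries alone, part of which may be technical.

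Levels are in FPKM, the fragments of a gene per kilobase of its length and per library size. Prmt5 (chromosome 14, 54507187 to 54517525) was at 23.7 and 20.1 FPKM in the mutants, against 28.7, 26.4 and 25.8 FPKM in the controls. Both mutants were below all controls, at a log2 change of -0.29 that missed the threshold (SE 0.12, limma adjusted p = 0.234). A value per gene does not separate deleted exons from kept ones, and Prmt5 of cells outside the epithelium is part of it. Library sizes, inferred from the steps of the FPKM values and not given in the labels, ran from 15652503 to 18682463 reads. Markers of lung epithelium were present, with Nkx2-1, the lung lineage factor, at 20.4 to 43.1 FPKM. Plin1, a fat droplet gene, was at 0 to 0.0273 FPKM. Of 8 adipocyte markers listed, 5 had an entry and 3 were tested, with 2 positive and 1 negative. With limma 2 reached an unadjusted p under 0.05 and 0 passed. Summed, the 5 were at 16.9 and 13.2 FPKM in the mutants, against 10.9, 10.5 and 11.8 FPKM in the controls. The summed FPKM of 10 epithelial markers was 300 in both mutants and 749, 380 and 281 in controls 1, 2 and 3, so control 1 stood apart. Xist, transcribed from an inactive X, was at 0.0673 and 0.289 FPKM in the mutants, against 57.3 to 115 FPKM in the controls. Summed FPKM of 4 Y-linked genes was 31.5 and 27.1 in the mutants, against 23.0, 18.8 and 4.49 in the controls. Each control thus held both Xist and Y-linked RNA. Sex make-up differed with genotype, although 0 of the 54 splicing genes lie on X or Y. The entry Gm23935 spanned 25156 to 588384 FPKM, which weighs on any conversion to shares of the summed FPKM (TPM). Its recovered reads, 26789 in control 1 and 524952 in mutant 2, also count in the library size behind the FPKM. Lars2 (174 to 3563 FPKM) and Rn18s-rs5 (435 to 7739 FPKM) varied widely as well, and both were lowest in control 1.

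No splicing gene of the 54 passed the test of mutant against control, and the differences were small. The test was limma on log2(FPKM + 1) over 12838 genes, with Benjamini-Hochberg adjustment and a threshold of 0.05, and 303 genes (2.36%) passed. All 54 were tested and 0 passed in either direction, where 0.989% of all genes passed as higher and 1.37% as lower in the mutants. The smallest adjusted p was 0.0820, that of Snrpd2. An unadjusted p under 0.05 was reached by 9 of the 54 (16.7%), where 18.9% of all genes tested did so. Of these, 6 were higher in the mutants and 3 lower, beside 6.53% and 12.3% of all genes. Limma's voom on reads recovered from the FPKM steps also called 0 of the 54, with 10 at an unadjusted p under 0.05. The largest log2 change among the members was 0.473 in size, that of Prpf39, and 13.7% of all genes tested had a larger one. The median size of a log2 change was 0.168 over the members and 0.158 over all genes tested, so the members changed about as much as a typical gene. The 95% interval of every member lay within 1 log2 unit of 0, with a half-width of at most 0.49. In bulk tissue fewer cells of a type and less RNA per cell cannot be told apart, and RNA of cells outside the epithelium is part of every value.

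The groups did not overlap, with both mutants on the same side of all 3 controls, for 22 members (40.7%), where 37.6% of all genes tested did so. They lay above the controls for 13 members (24.1%) against 13.2% of all genes, and below them for 9 members (16.7%) against 24.4%. The median log2 change was 0.04 over the members and -0.06 over all genes tested. The share without overlap was thus near the background. The share above was larger and the share below smaller than in all genes, a difference that was not tested. The exact permutation test of single values in a design of 2 against 3 cannot give a p under 0.1.

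**Figure D1:**
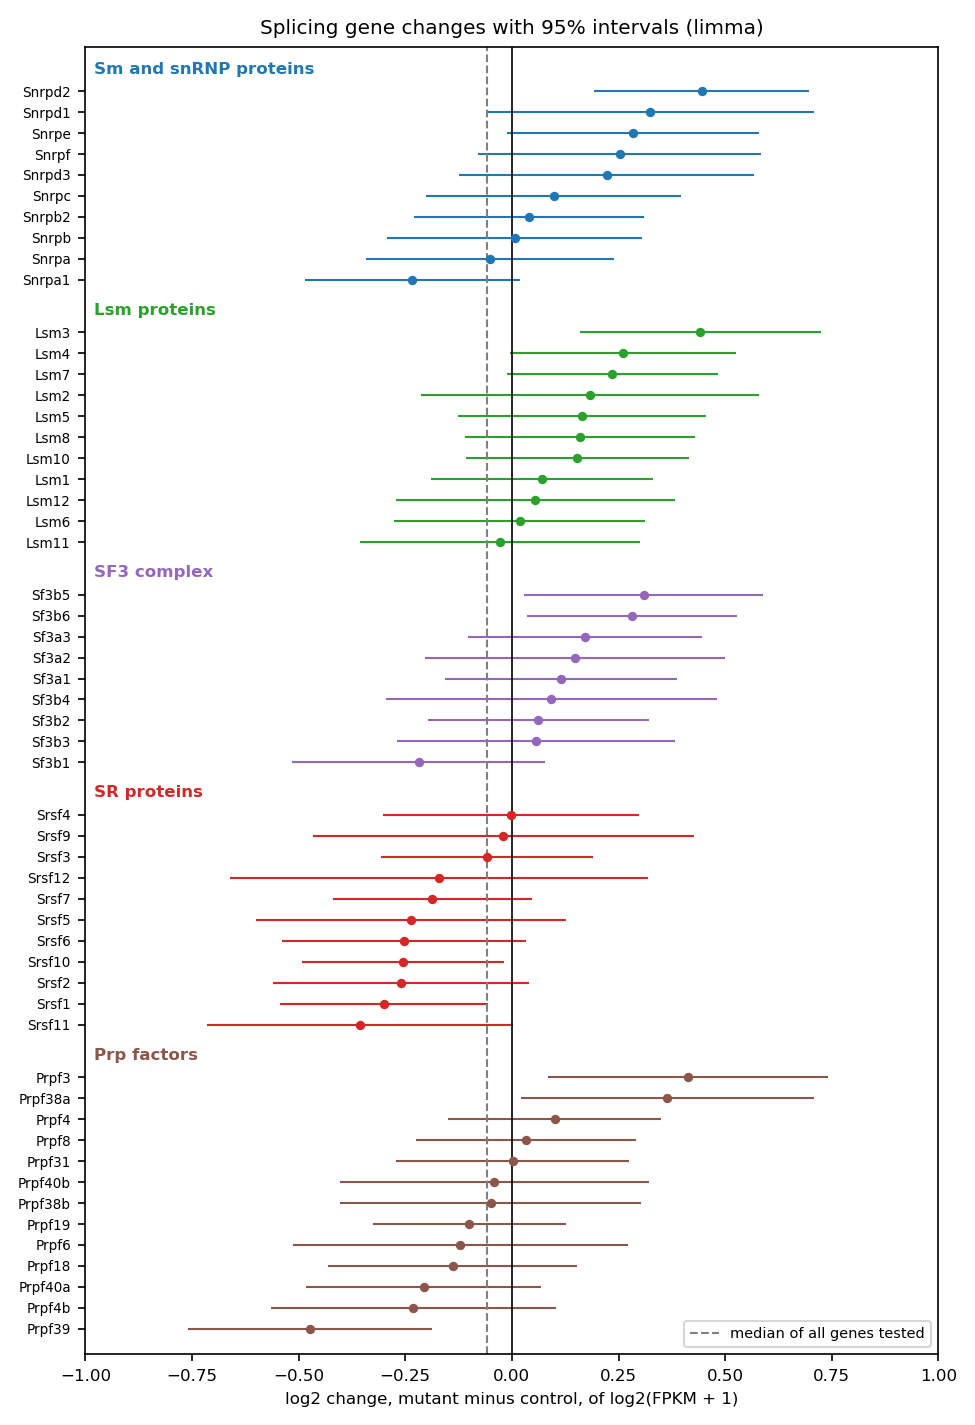
The horizontal axis is the log2 change, mutant minus control, of log2(FPKM + 1), and each row is a gene, with points for the limma estimate and bars for its 95% interval; the dashed line is the median of all genes tested (-0.06). All 11 SR protein genes sit at or left of 0, and 10 of 11 Lsm genes sit right of it, with most intervals crossing 0.

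The families differed in the sign of their log2 changes. Over all 12838 genes tested, 4988 log2 changes were positive and 7850 negative. Of the Lsm genes 10 of 11 had a positive log2 change, of the Snrp genes 8 of 10 and of the SF3 genes 8 of 9, with medians of 0.16, 0.16 and 0.12. All 11 Srsf genes had a negative log2 change, with a median of -0.24, although the FPKM mean of Srsf4 was 0.411% higher in the mutants. The Prpf genes were mixed, with 5 positive and 8 negative and a median of -0.05. With median ratio scaling 3 Srsf genes turned positive, with quantile normalization 1, with the Y-linked covariate 2 and with the replicate block 1. With a library left out, 0 to 3 Srsf genes were positive, and the 3 came without mutant replicate 2. TPM made all 54 genes negative, since it moved the median of all genes from -0.06 to -0.59. TPM without Gm23935 left 8 Lsm, 6 Snrp and 6 SF3 genes positive and 0 Srsf genes. Counted against the median of all genes, 11 of 11 Lsm genes, 9 of 10 Snrp genes, 8 of 9 SF3 genes, 3 of 11 Srsf genes and 7 of 13 Prpf genes lay above it, and under TPM the counts were 11, 8, 8, 2 and 6. With the covariate, the summed FPKM of 4 Y-linked genes, they were 9, 7, 7, 3 and 4. That sum was higher in both mutants than in all controls, so this fit cannot fully separate it from genotype. Members of a family share libraries, so the signs are not independent of each other, and no test was made over a family.

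**Figure D2:**
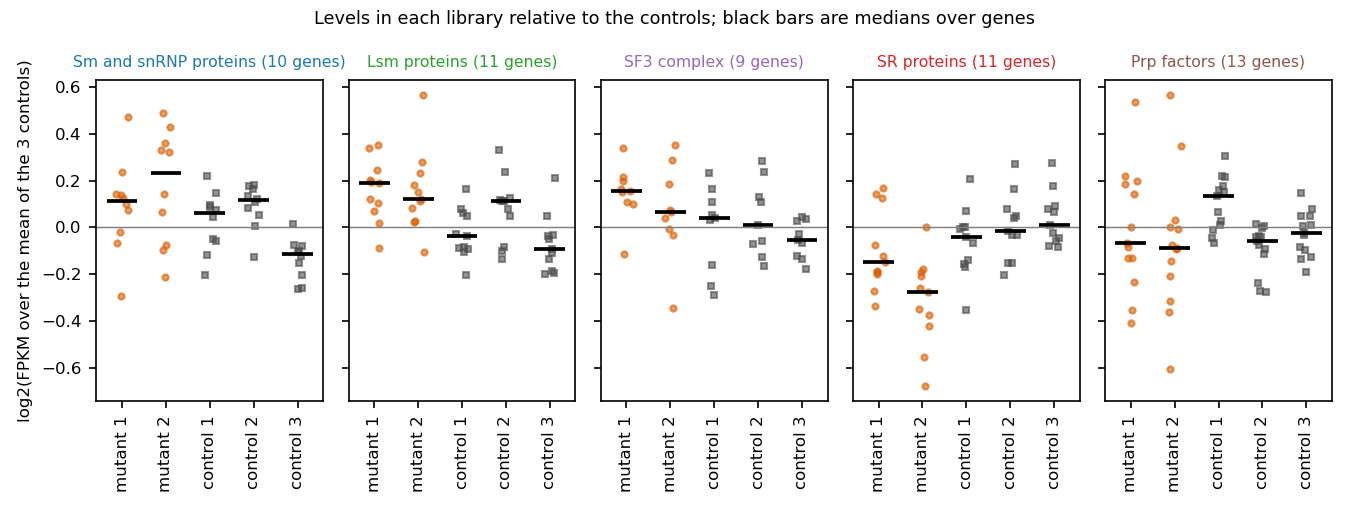
Each panel is a gene family, the horizontal axis gives the library and the vertical axis the log2 ratio of a gene's FPKM to the mean of the 3 controls; points are genes and black bars are medians over genes. The SR protein medians are -0.15 and -0.28 in the mutants and lie between -0.04 and 0.01 in the controls.

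Within a library, the ratio between families does not depend on how libraries are scaled. The mean log2 FPKM of the Sm ring genes Snrpb, Snrpd1, Snrpd2, Snrpd3, Snrpe and Snrpf exceeded that of the 11 Srsf genes by 0.75 and 1.08 in mutants 1 and 2. The same difference was 0.55, 0.55 and 0.26 in controls 1, 2 and 3. Both mutants were above all 3 controls. This ratio was formed after the signs had been seen and is given as a description. It shows unequal levels, not which of the families moved. Summed FPKM of 12 cell cycle markers was 641 and 669 in the mutants and 629, 615 and 537 in the controls, also without overlap, with 10 of 12 positive and 0 past the threshold. Markers of some other cell types differed more. Of 8 skeletal muscle markers tested all were negative, with a median log2 change of -2.35, and 7 passed as lower. Over all 10 skeletal muscle markers listed, tested or not, the summed FPKM was 69.2 and 158 in the mutants, against 444, 309 and 723 in the controls. Neural crest and neuron markers were negative in 8 of 8, with a median of -0.76, and 2 passed as lower. Their summed FPKM was 52.4 and 37.9, against 84.4, 64.1 and 89.0 in the controls. Of 10 mesenchyme markers 1 passed as higher and 1 as lower. Endothelium, erythroid and macrophage markers had 0 past the threshold, at median log2 changes of -0.06, 0.03 and 0.28. The parts of the cell cycle and of these cell types in the family values were not tested.

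Upstream sequence was drawn for the genes with a RefSeq start in the GRCm38.p6 promoter table, 45 of the 54. One stretch per family is shown, to let the reader see the kind of start region these genes have. Each belongs to the family member with the smallest p among those whose window, up to 250 bases before the start, held at least 100 bases outside any annotated exon. Runs are 5′ to 3′ on the gene's strand, and capitals mark motifs searched on both strands.

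Snrpd2, chr7:19149588-19149721, plus strand: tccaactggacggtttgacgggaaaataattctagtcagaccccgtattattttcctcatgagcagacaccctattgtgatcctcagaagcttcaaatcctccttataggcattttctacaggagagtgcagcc
Lsm8, chr6:18848385-18848578, plus strand: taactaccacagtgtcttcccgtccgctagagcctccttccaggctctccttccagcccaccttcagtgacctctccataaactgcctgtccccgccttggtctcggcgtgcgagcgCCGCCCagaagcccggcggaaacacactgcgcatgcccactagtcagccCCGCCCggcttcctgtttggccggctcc
Sf3b6, chr12:4817358-4817543, plus strand: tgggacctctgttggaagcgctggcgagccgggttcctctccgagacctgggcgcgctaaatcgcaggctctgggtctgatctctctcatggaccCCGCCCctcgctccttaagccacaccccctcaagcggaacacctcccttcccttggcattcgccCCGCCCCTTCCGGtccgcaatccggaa
Srsf11, chr3:158031767-158031990, minus strand: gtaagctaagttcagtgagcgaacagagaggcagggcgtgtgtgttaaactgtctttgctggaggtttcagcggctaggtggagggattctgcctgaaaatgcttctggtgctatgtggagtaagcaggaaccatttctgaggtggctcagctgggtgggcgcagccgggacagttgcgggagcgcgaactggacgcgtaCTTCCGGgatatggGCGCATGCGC
Prpf39, chr12:65036084-65036332, plus strand: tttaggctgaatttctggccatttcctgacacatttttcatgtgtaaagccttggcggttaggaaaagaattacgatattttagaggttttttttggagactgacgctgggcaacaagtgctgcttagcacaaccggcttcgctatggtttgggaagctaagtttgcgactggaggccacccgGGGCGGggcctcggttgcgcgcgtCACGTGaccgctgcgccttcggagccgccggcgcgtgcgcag

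The capitals mark CCGGAAG (the core of ETS factor sites), GGGCGG (the GC box of Sp and KLF factors), CACGTG (an E-box) and the NRF1 core, or their reverse complements. In Sf3b6 a GC box and the ETS core adjoin each other without sharing bases. The exon-free stretch of Snrpd2 printed here holds none of these motifs, but its whole window, which runs on into an exon, holds a GC box. The Srsf11 start shown lies inside the annotated gene, downstream of its first start. Of the 7 SF3 genes with a window, 6 held the ETS core, and by windows 87.5% of the SF3 windows, 34.5% of all member windows and 12.7% of the windows of all genes tested did so. The GC box stood in 92.9% of Srsf windows and in 58.6% of those of genes tested. For the Lsm windows the ETS core was in 10.0% and the GC box in 70.0%. A match is a match of letters and no evidence of binding.

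The genes span a wide range of levels. By mean FPKM over the 5 libraries, Snrpd1 (149), Lsm7 (139), Srsf7 (130), Sf3b2 (121) and Srsf3 (115) were highest. For each of these genes the length recovered from the FPKM is shorter than the annotated exon bases. It is 837 against 2052 bases for Snrpd1 and 468 against 1601 for Lsm7. The order between genes therefore depends on the length used. Srsf12 (2.64), an SR-like splicing repressor, and Lsm11 (4.11), a protein of the U7 snRNP of histone mRNA processing, were lowest. The median member was at 32.8 FPKM, above 87.5% of all genes tested. Between 708 and 49937 recovered reads stood behind a member over the 5 libraries, with a median of 8262. The ratio of the highest to the lowest library ran from 1.11 for Prpf19 to 1.94 for Srsf12.

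**Figure D3:**
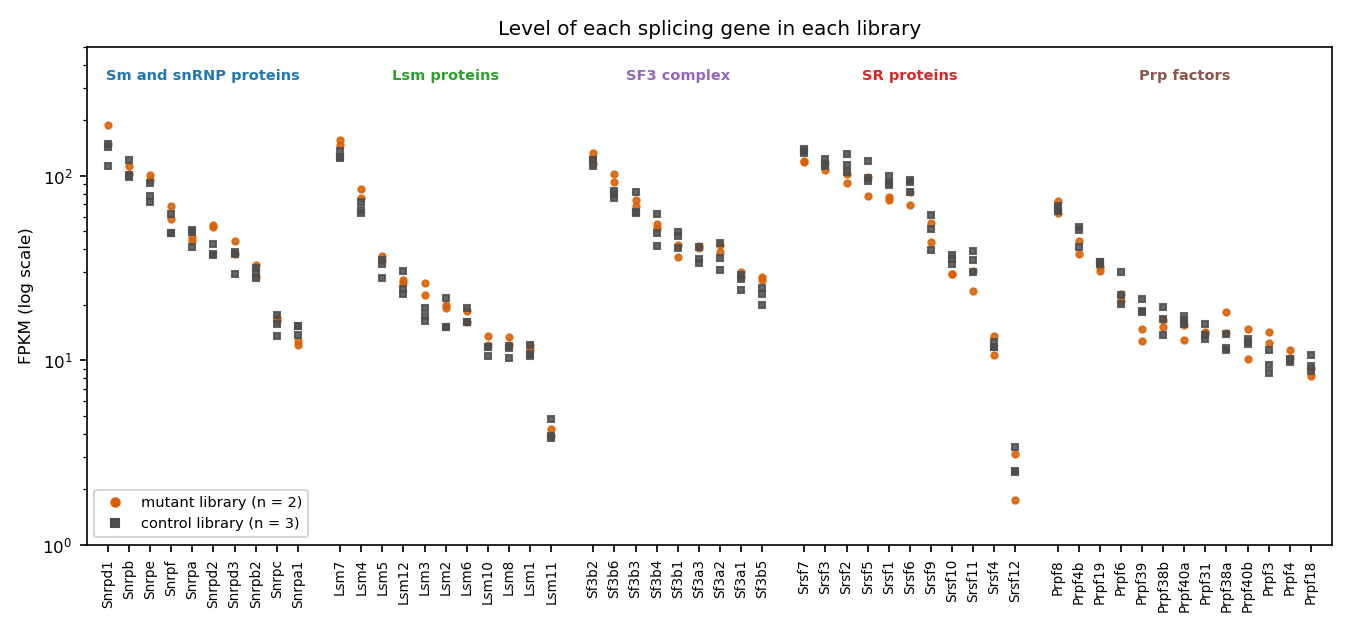
The vertical axis is FPKM on a log scale and the horizontal axis lists the genes by family, ordered by mean level; each symbol is a library, with circles for mutants (n = 2) and squares for controls (n = 3). Levels run from about 2.64 FPKM on average for Srsf12 to 149 for Snrpd1, and the groups mostly interleave.

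Sm proteins form the ring around the U1, U2, U4 and U5 RNAs. Snrpd2 (chromosome 7, 19149722 to 19153542, GRCm38) encodes SmD2. It was at 54.2 and 52.6 FPKM in the mutants, against 37.5, 42.5 and 37.0 FPKM in the controls. Both mutants were above all controls, at 53.4 ± 1.16 (SD, n = 2) against 39.0 ± 3.01 FPKM (SD, n = 3), or 36.8% higher by mean. The log2 change was 0.44 (SE 0.11, 95% interval 0.19 to 0.70), which missed the threshold with limma (adjusted p = 0.0820). Snrpe, which encodes SmE, was at 94.8 and 101 FPKM against 77.6, 91.1 and 72.4 FPKM. Here too both mutants were above all controls, with a log2 change of 0.28 (limma adjusted p = 0.281).

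The ring proteins that PRMT5 methylates gave no common picture. Snrpd1, for SmD1, was at 149 and 189 FPKM in the mutants, against 149, 143 and 113 FPKM in the controls. The groups overlapped, with mutant 2 highest and control 3 lowest, and the log2 change was 0.32 (SE 0.16, limma adjusted p = 0.345). Snrpd3, for SmD3, was at 37.7 and 44.2 FPKM against 37.5, 38.6 and 29.3 FPKM. Its groups overlapped as well, at a log2 change of 0.22 (adjusted p = 0.482), which turned to -0.018 with the Y-linked covariate. Snrpb, which encodes SmB and SmB′, was at 113 and 102 FPKM against 98.9, 122 and 102 FPKM. Its log2 change was 0.01 with a 95% interval of -0.29 to 0.31, so no direction can be given. Snrpf, for SmF, also overlapped, at a log2 change of 0.25.

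Snrp genes beyond the ring showed little. Snrpa1, for the U2 protein A′, was at 12.0 and 12.8 FPKM in the mutants, against 15.3, 15.4 and 13.7 FPKM in the controls. Both mutants were below all controls, and the log2 change of -0.23 did not pass (limma adjusted p = 0.299). Snrpa and Snrpc of the U1 snRNP and Snrpb2 of the U2 snRNP overlapped between groups, at log2 changes of -0.05, 0.10 and 0.04.

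Lsm proteins form rings on U6 RNA in the nucleus (LSM2 to LSM8) and on decaying mRNA in the cytoplasm (LSM1 to LSM7). Lsm3 (chromosome 6, 91515928 to 91522625), a member of both rings, was at 22.5 and 26.1 FPKM in the mutants. The controls were at 17.3, 19.2 and 16.3 FPKM, all below both mutants. The log2 change was 0.44 (SE 0.12, 95% interval 0.16 to 0.72), not past the threshold with limma (adjusted p = 0.107). Lsm4, whose tail PRMT5 methylates, was at 84.5 and 75.6 FPKM against 62.6, 72.2 and 65.3 FPKM. Both mutants were above all controls, but mutant 2 exceeded control 2 by less than control 2 exceeded the other controls. The log2 change was 0.26 (limma adjusted p = 0.275). Lsm7 was at 148 and 157 FPKM against 126, 137 and 125 FPKM, again without overlap (log2 change 0.24, limma adjusted p = 0.287).

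Across the family, both mutants were above all controls for 6 of 11 Lsm genes (54.5%) and below them for 0. Of all genes tested 13.2% were above and 24.4% below. The other genes without overlap were Lsm5, Lsm8 and Lsm10, at log2 changes of 0.16, 0.16 and 0.15. Lsm1, which marks the cytoplasmic ring, was at 0.07, and Lsm2 and Lsm6 of the rings were at 0.18 and 0.02. Lsm11, which pairs with Lsm10 in the U7 snRNP, was at -0.03 with a 95% interval of -0.36 to 0.30, and its sign turned under several alternatives, among them median ratio scaling (0.040) and the Y-linked covariate (0.16). Lsm12, which belongs to neither ring, was at 0.05.

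SF3A and SF3B are parts of the U2 snRNP, and SF3B1 grips the branch site of the intron. Sf3b6, which encodes the p14 protein at the branch site, was at 92.4 and 102 FPKM in the mutants, against 82.8, 80.2 and 76.1 FPKM in the controls. Sf3b5, a small subunit, was at 28.4 and 27.4 FPKM against 22.9, 24.5 and 19.8 FPKM. For both genes the mutants were above all controls, at log2 changes of 0.28 and 0.31 (limma adjusted p = 0.206 and 0.221). Sf3b1 itself was at 42.3 and 36.1 FPKM against 49.3, 40.9 and 47.2 FPKM. It was the 1 SF3 gene with a negative log2 change, -0.22, and its groups overlapped (limma adjusted p = 0.411). Sf3b2 had the highest mean FPKM of the family. It differed by 0.06 on the log2 scale (95% interval -0.20 to 0.32), a sign that turned without mutant replicate 1. The other 5 SF3 genes overlapped between groups, at 0.06 to 0.17.

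SR proteins bind exons and recruit the early spliceosome, and many of their genes hold exons that lead to decay of their own mRNA. Srsf1 (chromosome 11, 88047373 to 88053755), the best-studied of them, was at 73.9 and 76.9 FPKM in the mutants. The controls were at 89.1, 91.0 and 99.5 FPKM, above both mutants. The means were 75.4 ± 2.15 (SD, n = 2) and 93.2 ± 5.51 FPKM (SD, n = 3), a log2 change of -0.30 (SE 0.10, 95% interval -0.54 to -0.06). It did not pass with limma (adjusted p = 0.180). Srsf10, a phosphorylation-controlled splicing factor, was at 29.3 and 29.5 FPKM against 35.2, 37.3 and 33.4 FPKM. The mutants were again below all controls (log2 change -0.26, limma adjusted p = 0.230).

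Srsf11 had the most negative log2 change of the family, -0.36 (SE 0.15, limma adjusted p = 0.267). It was at 30.3 and 23.7 FPKM against 34.8, 30.2 and 39.3 FPKM, and mutant 1 overlapped control 2. Srsf7, the highest by mean FPKM, was at 120 FPKM in both mutants, against 137, 140 and 132 FPKM in the controls. Its groups did not overlap, and its log2 change was -0.19 (limma adjusted p = 0.370). Srsf2 and Srsf6 were also below all controls in both mutants, at log2 changes of -0.26 and -0.25. The other 5 genes overlapped between groups, from -0.24 for Srsf5 to -0.003 for Srsf4. In all, mutants were below the controls for 5 of 11 Srsf genes (45.5%) and above them for 0, beside 24.4% and 13.2% of all genes tested.

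Prp factors take part in every stage of the splicing cycle. Prpf39 (chromosome 12, 65036333 to 65063386), a U1 snRNP-associated protein of alternative splicing, was at 14.7 and 12.8 FPKM in the mutants. The controls were at 18.6, 18.3 and 21.6 FPKM, all higher. The means were 13.7 ± 1.34 (SD, n = 2) and 19.5 ± 1.82 FPKM (SD, n = 3), and the log2 change was -0.47 (SE 0.12, 95% interval -0.76 to -0.19). With limma the adjusted p was 0.0932. Prpf3, of the U4/U6 snRNP, went the other way, at 14.1 and 12.4 FPKM against 11.3, 9.38 and 8.56 FPKM. Its log2 change was 0.41 (SE 0.14, limma adjusted p = 0.172).

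Prpf38a, which joins with the U4/U6.U5 tri-snRNP, was at 14.1 and 18.2 FPKM against 13.9, 11.3 and 11.6 FPKM. Mutant 1 was close to control 1, and the log2 change was 0.36 (limma adjusted p = 0.236). Prpf8, the core protein of the catalytic centre, was at 73.5 and 63.2 FPKM against 64.5, 66.4 and 68.8 FPKM, with the controls inside the range of the mutants. Its log2 change was 0.03 (95% interval -0.22 to 0.29). The other tri-snRNP genes Prpf4, Prpf6 and Prpf31 were at log2 changes of 0.10, -0.12 and 0.001, with both mutants above all controls for Prpf4 alone. Mutants were above all controls for 3 of 13 Prpf genes and below them for 3 (23.1% each), beside 13.2% and 24.4% of all genes tested.

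**Figure D4:**
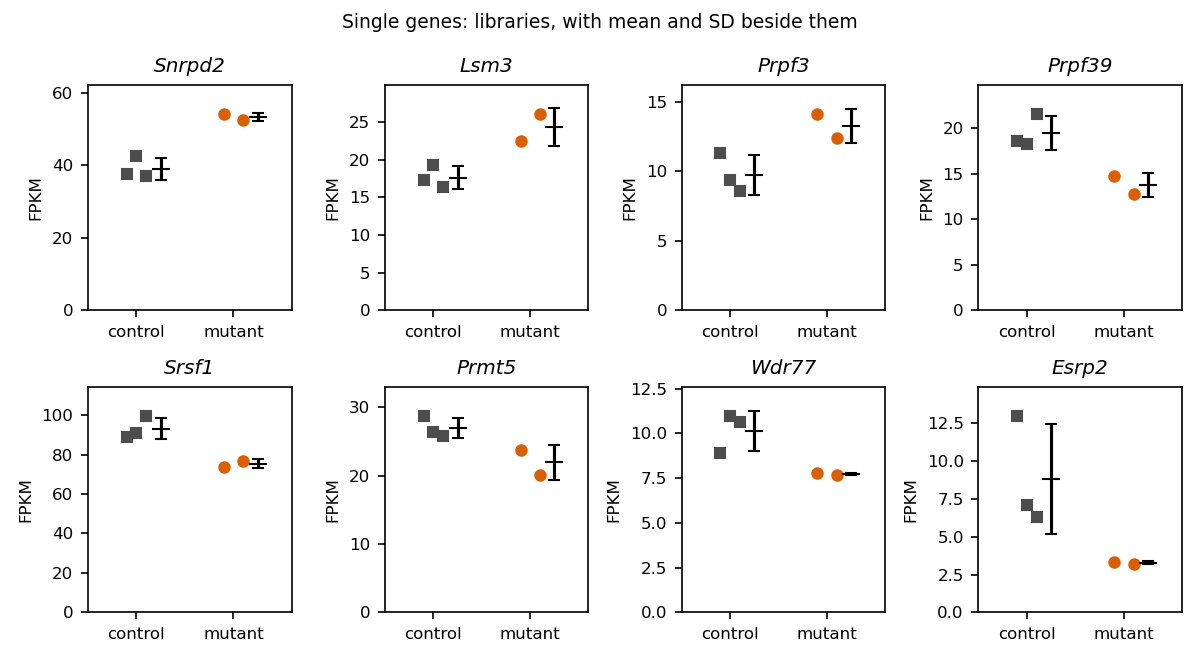
Each panel shows a gene with FPKM on the vertical axis from 0; squares are the 3 controls, circles the 2 mutants, and the bar beside each group is the mean with its SD. The mutants lie above the controls for Snrpd2, Lsm3 and Prpf3 and below them for Prpf39, Srsf1, Prmt5, Wdr77 and Esrp2.

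Gene length went with the sign of the changes. The length behind the FPKM had a median of 2388 bases for Lsm, 2738 for Snrp, 3231 for SF3, 3988 for Srsf and 5439 for Prpf genes. The 9 members under 1500 bases had a median log2 change of 0.25, with 8 positive, and the 10 members of 6000 bases or more had a median of -0.07, with 3 positive. All genes tested showed a weaker slope of the same sign, with medians of 0.05 under 1500 bases and -0.09 at 6000 or more. Across the 54 genes, which share the 5 libraries, log2 length and log2 change had a Pearson r of -0.474 and a Spearman rho of -0.481. Over 12837 genes tested these were -0.0400 and -0.116. For 14 genes the length differed from the annotated exon bases. It is then the smallest that gives whole reads, or a multiple of that within 1% of the annotated length. Over the 40 other genes r was -0.446 and rho -0.486, and with annotated exon bases for all 54 they were -0.501 and -0.529. Length and family go together here, and their parts were not separated.

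**Figure D5:**
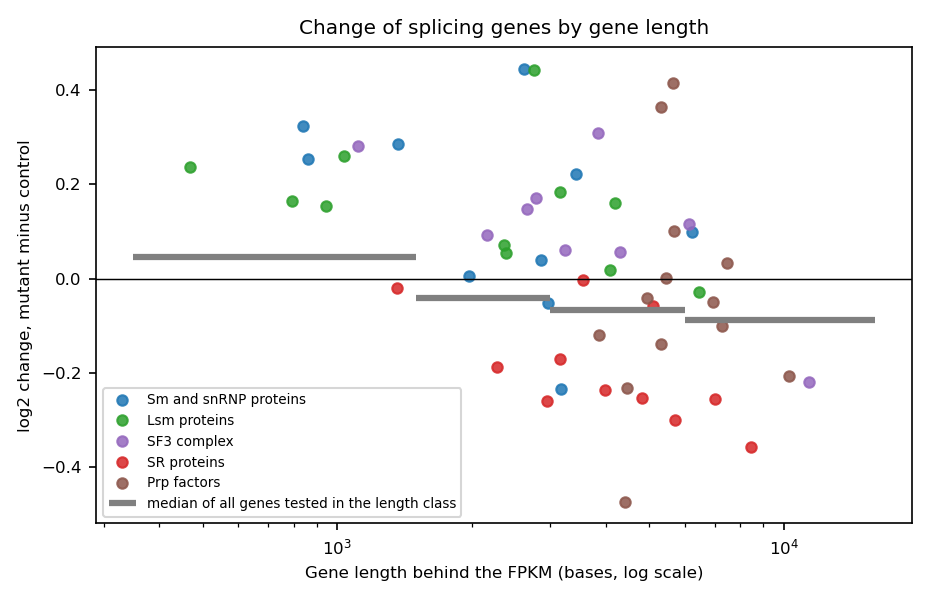
The horizontal axis is gene length in bases on a log scale and the vertical axis the log2 change, mutant minus control; points are the 54 genes coloured by family and grey bars are medians of all genes tested in 4 length classes. The grey bars step from 0.05 to -0.09, and the SR protein genes lie below 0 at each length they cover.

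Some models limit what a gene's value can mean. In GENCODE M21 (GRCm38), 24 of the 54 genes have an annotated transcript subject to nonsense-mediated decay, among them 9 of 11 Srsf genes, and 40 have a retained-intron transcript. A value per gene adds these to the coding transcripts, so it says nothing on splicing itself. For 6 genes over 10% of the exon bases also lie in exons of another gene, most of all Snrpf (85.4%, shared with Ccdc38 and 4933408J17Rik), Srsf4 (43.0%) and Srsf2 (25.3%). The use of strand in counting is not given, so their reads may be mixed. For 15 genes, 6 of them Snrp genes, copies elsewhere matched a coding transcript at 95% identity or more over 200 bases. There were 27 such copies, 26 of them annotated as pseudogenes and 0 listed in the expression table, and the levels of these genes are less certain.

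The machinery that methylates and loads Sm proteins was measured beside them. Prmt5 itself is given above. Wdr77, the partner of PRMT5 that presents substrates, was at 7.76 and 7.68 FPKM against 8.88, 11.0 and 10.6 FPKM (log2 change -0.35, limma adjusted p = 0.187). Clns1a, which hands Sm proteins to PRMT5, was at 24.1 and 26.8 FPKM against 22.5, 25.02 and 21.8 FPKM and overlapped. Gemin6 of the SMN complex was at 12.1 and 15.1 FPKM against 10.2, 10.4 and 9.19 FPKM (log2 change 0.41, limma adjusted p = 0.147). Of the 17 genes tested in this list 0 passed, 12 were positive and the median log2 change was 0.07.

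Other splicing genes, in 7 lists with 127 genes in the table and 125 tested, also had 0 past the threshold with limma. An unadjusted p under 0.05 was reached by 13 of them (10.4%), beside 18.9% of all genes tested. The median log2 change of the 125 was -0.01, beside -0.06 over all genes tested. Of all 12838 genes tested, 4988 were positive and 7850 negative. Of snRNP proteins outside the name rule, 10 of 17 were positive with a median of 0.09. Among them Snrpg, for SmG, was at 66.5 and 74.5 FPKM against 51.9, 60.1 and 45.6 FPKM, above all controls in both mutants. Its log2 change was 0.42 (limma adjusted p = 0.159), close in size to that of Snrpd2, and it is named here after its values were seen. Snrnp25, of the U11/U12 snRNP of minor introns, was at 23.5 and 21.5 FPKM against 15.7, 19.3 and 15.3 FPKM (log2 change 0.41, limma adjusted p = 0.149).

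The list of branch site factors had a median log2 change of -0.0007 over 17 genes tested, with Rnpc3, of the minor spliceosome, lowest in p at a log2 change of -0.35 (limma adjusted p = 0.285). Catalytic step factors were positive in 17 of 24, with a median of 0.05, and Cwc15 was at 0.25 (limma adjusted p = 0.301). Exon junction and SR-related genes were positive in 5 of 15, and Magoh, a core protein of the exon junction complex, was at 0.33 (limma adjusted p = 0.244). All 8 SR protein kinase genes had a negative log2 change, with a median of -0.15, where 7850 of all 12838 genes tested were negative. Srpk3, a kinase gene of muscle, was at 0.388 and 0.620 FPKM in the mutants, against 1.596, 1.39 and 3.53 FPKM in the controls (log2 change -1.02, limma adjusted p = 0.119). Skeletal muscle markers, given above, were lower in the mutants as well. The part of muscle in the value of Srpk3 was not tested.

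Splicing regulators of the hnRNP and tissue-specific kinds were negative in 21 of 27, with a median of -0.12. The most negative was Esrp2 (chromosome 8, 106130319 to 106136974), which with Esrp1 sets the epithelial pattern of exon choice. Esrp2 was at 3.35 and 3.22 FPKM in the mutants, against 12.9, 7.11 and 6.30 FPKM in the controls. Both mutants were below all controls, at 3.29 ± 0.0884 (SD, n = 2) against 8.79 ± 3.63 FPKM (SD, n = 3). The log2 change of -1.13 (SE 0.26, 95% interval -1.74 to -0.52) did not pass with limma (adjusted p = 0.0744), but it passed without control replicate 1, at -0.84 and an adjusted p of 0.0332, and with voom, at 0.0454. Over the 16 alternatives its adjusted p ranged from 0.0332 to 0.501. Esrp1 was at 4.94 and 5.33 FPKM against 14.97, 8.74 and 6.42 FPKM (log2 change -0.77, limma adjusted p = 0.204). Of 10 epithelial markers 8 were negative, with a median log2 change of -0.64 and a range of -1.12 to 0.07. Both mutants were below all controls for 6 of the 10 (60%), beside 24.4% of all genes tested. With limma 4 (40%) reached an unadjusted p under 0.05, beside 18.9% of all genes tested, and 0 passed. Of the 10, 0 were at 0 in all libraries. Control 1 was highest for both Esrp genes and for the summed markers. The part of epithelial content in the Esrp values was not tested.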

How the data were processed

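Values were analysed for 5 libraries. The authors deposited 1 table of FPKM per gene symbol, named so by its title, and the labels' protocols give library preparation from 1.3 ug of total RNA. The submitters' processing notes name the builds GRCm38 and mm10. The aligner, counter, annotation and strandedness were not given in the sources used here.

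The main test was limma 3.58.1 (trend, two-sided, no covariate) on log2(FPKM + 1), with genes kept at 1 FPKM or more in 2 libraries and Benjamini-Hochberg adjustment. It understates changes of low genes. Reads were recovered from FPKM steps with summed exon lengths of GENCODE M21, which made all 5 values whole for 13961 of 18885 matched genes at a relative tolerance of 1e-06. For other genes the smallest length that gives whole reads was used, or its multiple where that lay within 1% of the annotated length. Alternatives were pseudocount, filters, scalings, voom, a Y-linked covariate, a replicate block and leaving out each library.

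The members and lists were chosen with earlier results of these data known. Named genes are members past the threshold (0), in each family the 3 smallest p and the highest level, then Snrpb, Snrpd1, Snrpd3, Lsm4, Prmt5, Wdr77, Clns1a, Esrp1 and Esrp2, and in each other list those past the threshold, up to 4 and at least 1, by smallest p. Other genes are named to complete families. Steps were tested on simulated data. Of the planned protein features, none are used here.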

Additional observations from a re-analysis of the deposited data

How the results depend on the processing

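The count of 0 splicing genes past the threshold held under all 16 alternatives, whose lowest adjusted p over the 54 genes ran from 0.0622 with voom to 0.662 with TPM. The count over all genes was 303 and moved to 69 with no filter, 67 with TPM, 605 with voom and 55 with the Y-linked covariate, and it was 12 to 308 with a library left out. It dropped to 21 when mutant replicate 1 was left out and to 12 when mutant replicate 2 was, fits in which the single mutant is taken to have the spread of the controls, so a count of 0 there says little. Of the other splicing genes 1 passed, Esrp2, with a minimum of 5 FPKM (adjusted p = 0.0491), TPM without Gm23935 (0.0478), voom (0.0454) and the replicate block (0.0389), and 0 to 1 passed with a library left out.

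Signs of named genes turned most with TPM, which divides by a sum that includes Gm23935. The log2 changes there were Sf3b6 -0.29, Sf3b5 -0.25, Sf3b2 -0.51, Snrpd2 -0.12, Snrpe -0.29, Snrpd1 -0.25, Prpf3 -0.12, Prpf38a -0.18, Prpf8 -0.54, Lsm3 -0.11, Lsm4 -0.31, Lsm7 -0.34, Snrpb -0.57, Snrpd3 -0.34, Clns1a -0.43, Snrnp25 -0.14, Cwc15 -0.32, Magoh -0.24 and Gemin6 -0.12. With TPM without Gm23935 they were Sf3b2 -0.0096, Prpf8 -0.038 and Snrpb -0.065, and with the Y-linked covariate Snrpb -0.057 and Snrpd3 -0.018. With a library left out Sf3b2 ranged from -0.032 to 0.16, Prpf8 from -0.075 to 0.14 and Snrpb from -0.068 to 0.098. The cause was not tested beyond the construction of TPM. Replicate numbers are shared by libraries 1 and 2 of both groups, but nothing says that they mark litters. Deviations of same-numbered libraries from their group means had correlations of -0.0671 and 0.0203. With 2 mutants these deviations mirror each other, so mutant 2 with control 1 gives 0.0671, and the correlations cannot decide whether libraries are paired. With the replicate number as a block, which leaves control 3 without weight, 259 genes passed, and Snrpb was at -0.030. With 2 and 3 libraries, changes smaller than the intervals given cannot be told from 0.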
